A study of Mus musculus with 8 samples.

Results

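The genes described here encode the insulin-like growth factors (IGFs), their receptors and their binding proteins, in primary mouse cortical astrocytes with reduced GSTM1 expression. The 10 genes, Igfbp2, Igfbp3, Igfbp4, Igfbp5, Igfbp6, Igfbp7, Igf1, Igf2, Igf1r and Igf2r, were found by symbol among 54146 genes, and all 10 passed the filter on low counts in every comparison. Igfbp4 was picked on its measured values, because it was much lower in GSTM1 KD than in control KD. Its knockdown values are therefore given as a description, with no test. The other 9 genes belong to the same family of ligands, receptors and binding proteins.

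mRNA was measured by RNA-seq in 8 libraries, 2 for each of 4 groups. All cells were astrocytes enriched from mixed glial cultures of neonatal C57BL/6 mouse cortices by shaking and depletion of CD11b+ microglia, and all had been infected with a lentivirus and selected with puromycin, so the controls carried a vector too. Control KD cells expressed a non-silencing shRNA and GSTM1 KD cells an shRNA against Gstm1. Each was left unstimulated (basal level) or received the cytokine TNF-α at 50 ng/ml during 6 h. The replicates are called biological replicates, but nothing says whether equal numbers share a litter or a virus preparation, and p-values measure only the spread between these libraries. The infection was of the mixed culture, before astrocytes were enriched. In bulk RNA, fewer cells of a type and less RNA per cell cannot be told apart.

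The totals of expected counts ran from 17349676 to 34434633 per library, and the 10 genes held 0.509 to 0.815% of them. Gstm1 was at 373 and 619 TPM (transcript abundance scaled for length and to the same total in each library) in control KD in the basal state and at 49.7 and 53.8 TPM in GSTM1 KD. Its log2 fold change was -3.33 ± 0.26 (SE, n = 2 libraries per group) in the basal state (adjusted p = 0.0132) and -3.68 ± 0.32 with TNF-α (adjusted p = 0.00981). These and all later adjusted p-values come from the quasi-likelihood test of edgeR, adjusted over all genes tested, with a threshold of 0.05, unless another tool is named. All 10 astrocyte markers were above 3 counts in every group, and their summed level was 1793 and 4129 TPM in control KD and 4131 and 6236 TPM in GSTM1 KD in the basal state, and 1772 and 3942 TPM and 3913 and 5945 TPM with TNF-α. The control KD replicates thus stood apart by about as much as the knockdown groups. Gfap was the largest part of the sum in every library. It was at 707 and 2206 TPM in basal control KD libraries and 2333 and 4184 TPM in basal GSTM1 KD libraries, and was not called (1.10, adjusted p = 0.234). In the basal state Aldoc (1.11), Aldh1l1 (1.05), Glul (0.78), Slc1a2 (0.67) and Gja1 (0.36) were also above 0 and not called. Aqp4 (-0.08) and Slc1a3 (0.01) were near 0, Sox9 (-0.50) was below 0 and not called, and S100b was called lower (-1.44). The median log2 fold change of the 10 astrocyte markers was 0.515 in the basal state and 0.280 with TNF-α. The microglial markers summed to 47.3 to 56.7 TPM over the 8 libraries, with P2ry12 at or under 3 counts in every group.

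IGF-I and IGF-II are secreted growth factors that act on the receptor tyrosine kinase encoded by Igf1r, while the receptor encoded by Igf2r takes IGF-II up and delivers it to lysosomes. IGF-binding proteins hold IGFs outside the cell, keep them from their receptor or prolong their life, and release them when a protease cuts them. In the brain, astrocytes are a known source of IGF-binding proteins, Igfbp2 among them. The product of Igfbp7 is a more distant relative that binds IGFs weakly.

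In the GRCm38 build and the GENCODE vM21 annotation, Igfbp4 (ENSMUSG00000017493.12) lies on the plus strand at chr11:99041244-99054392. Igfbp3 (ENSMUSG00000020427.11) lies on the minus strand of the same chromosome at chr11:7206086-7213923, next to Igfbp1 at a gap of 3539 bases. Igfbp2 at chr1:72824503-72852474 and Igfbp5 at chr1:72857932-72874884 are neighbours on opposite strands, with 5457 bases between them. Igfbp6 lies at chr15:102144362-102149511 on the plus strand and Igfbp7 at chr5:77349240-77408041 on the minus strand. The ligand genes are at chr10:87858265-87937042 on the plus strand (Igf1) and chr7:142650766-142666816 on the minus strand (Igf2). The receptor genes are at chr7:67952827-68233668 on the plus strand (Igf1r) and chr17:12682406-12769664 on the minus strand (Igf2r). The library kit marks strand, but whether the counting used it is not stated, so counts of Igf2r, Igf1, Igf2 and Igfbp7 may include reads of the overlapping Airn, Igf1os, Igf2os and Polr2b. Igf2 also overlaps Gm49394 and Mir483 on its own strand.

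The promoters of Igfbp4 and Igfbp3 are shown because these binding protein genes had the largest fold differences in GSTM1 KD, and that of Igfbp5 because its level did not pass the test. Each window runs from 250 bases before to 50 bases after the start of the RefSeq gene (GRCm38.p6), written 5′ to 3′ on the strand of the gene: chr11:99040994-99041293 on the plus strand for Igfbp4, chr11:7213874-7214173 on the minus strand for Igfbp3 and chr1:72874816-72875115 on the minus strand for Igfbp5. Capitals mark a match to TATAAA or GGGCGG on either strand. Matches to different motifs cannot overlap, since these motifs share no letter on either strand, while matches to the same motif can.

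Igfbp4: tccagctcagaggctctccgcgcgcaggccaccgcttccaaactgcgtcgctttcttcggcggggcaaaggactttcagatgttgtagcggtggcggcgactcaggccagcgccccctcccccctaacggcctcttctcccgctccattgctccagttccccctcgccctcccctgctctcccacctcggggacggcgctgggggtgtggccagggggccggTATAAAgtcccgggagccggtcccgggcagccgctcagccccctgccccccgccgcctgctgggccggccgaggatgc
Igfbp3: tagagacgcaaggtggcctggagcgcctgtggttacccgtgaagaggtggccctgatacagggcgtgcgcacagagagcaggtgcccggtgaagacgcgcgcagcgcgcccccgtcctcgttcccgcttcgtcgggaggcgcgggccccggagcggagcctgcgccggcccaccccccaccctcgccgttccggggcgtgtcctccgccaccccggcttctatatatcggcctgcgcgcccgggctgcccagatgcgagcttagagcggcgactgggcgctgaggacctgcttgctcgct
Igfbp5: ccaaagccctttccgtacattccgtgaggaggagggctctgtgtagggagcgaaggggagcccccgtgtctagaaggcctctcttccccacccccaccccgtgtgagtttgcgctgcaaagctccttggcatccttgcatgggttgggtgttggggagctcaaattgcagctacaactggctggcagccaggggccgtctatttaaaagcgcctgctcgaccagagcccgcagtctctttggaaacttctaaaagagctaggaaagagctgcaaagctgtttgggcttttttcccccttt

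The Igfbp4 window holds 1 TATAAA, which 13.6% of all 32851 windows of this length hold. The Igfbp3 and Igfbp5 windows hold neither motif, and 35.7% of all windows hold GGGCGG. All 10 genes matched the table. Igfbp6 also has a TATAAA, and the first windows of Igfbp2, Igfbp7, Igf1r and Igf2r hold 3, 4, 2 and 3 matches to GGGCGG. A match is a description of the letters and no evidence of a bound factor.

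In control KD astrocytes in the basal state, binding protein mRNA far exceeded that of the ligands. Igfbp2 had the highest mean level, 5167 ± 47.9 TPM (SD, n = 2), then Igfbp3 at 1649 ± 260 TPM, Igfbp5 at 444 ± 67.9 TPM and Igfbp7 at 64.1 ± 8.7 TPM. Igf1r, at 37.0 TPM, and Igfbp4, at 36.2 TPM, did not differ beyond the range of their replicates, nor did Igf2r (16.2 TPM) and Igf1 (15.8 TPM). Igfbp6 and Igf2 closed the order at 5.09 and 2.14 TPM. In GSTM1 KD the order was kept except that Igfbp4 dropped below Igf2r and Igf1, from rank 6 to rank 8 in the basal state and below Igf1r too with TNF-α, from rank 5 to rank 8, and that the replicates of Igfbp6 and Igf2 overlapped. Igfbp1, the hepatic binding protein beside Igfbp3, had at most 1 count in any library.

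**Figure D1:**
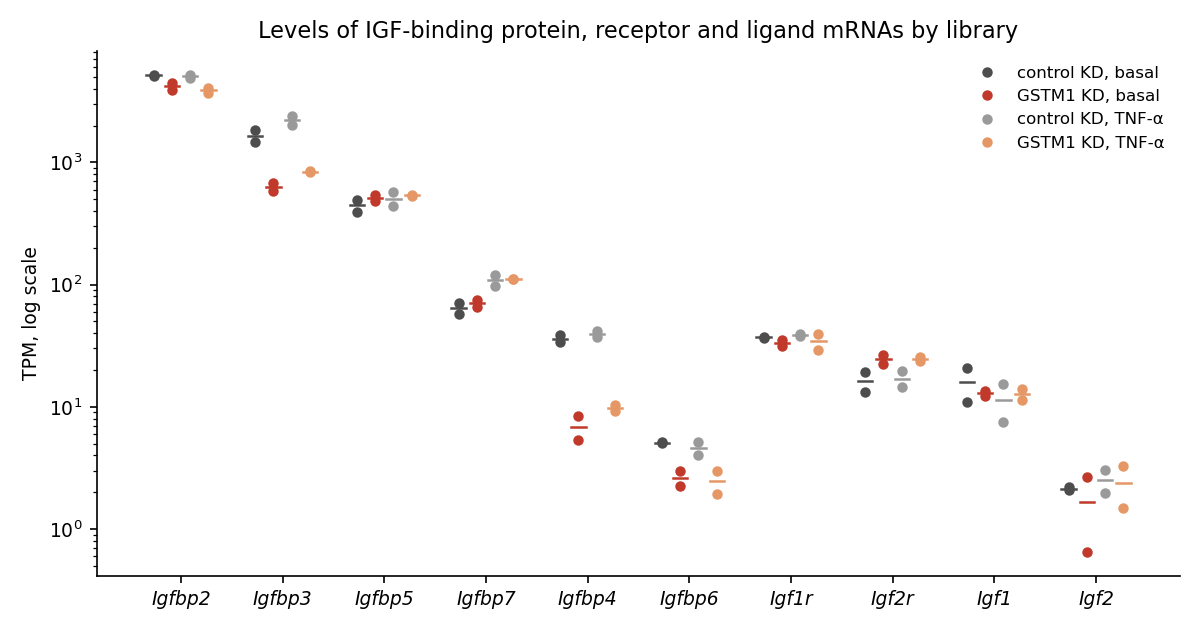
Level of each gene in TPM on a log scale, 1 point per library and a bar for the mean of 2 libraries, for the 4 groups. Igfbp3 and Igfbp4 are the genes whose GSTM1 KD points lie farthest under the control KD points, at 583 to 855 TPM against 1465 to 2386 TPM for Igfbp3 and at 5.33 to 10.3 TPM against 33.6 to 41.8 TPM for Igfbp4.

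The sum of the 6 Igfbp genes was 7366 ± 236 TPM (SD, n = 2) in control KD in the basal state and 5440 ± 488 TPM in GSTM1 KD, and 7958 ± 65.8 TPM and 5404 ± 301 TPM with TNF-α. Each GSTM1 KD library lay below each control KD library. The composition differed too. Igfbp3 made up 22.3 ± 2.8% of the sum in control KD and 11.6 ± 0.16% in GSTM1 KD in the basal state, and 27.8 ± 3.3% and 15.6 ± 0.50% with TNF-α. Igfbp2 took the larger part of every library, 62.4 to 71.3% in control KD and 71.5 to 77.6% in GSTM1 KD. Igfbp4, although it had the greatest fold difference, was at most 0.528% of the sum, so it hardly enters the total. No test was made on these sums and shares.

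**Figure D2:**
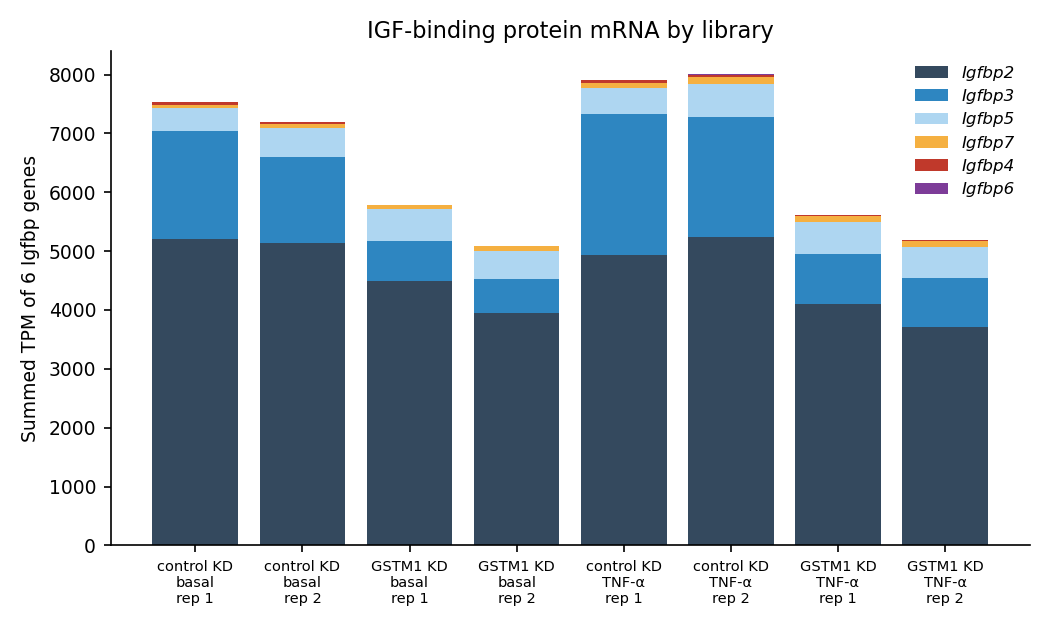
Summed TPM of the 6 Igfbp genes in each of the 8 libraries, with each gene as a layer of the bar. The control KD bars reach 7200 to 8005 TPM and the GSTM1 KD bars 5095 to 5785 TPM. The Igfbp3 layer shrinks most, from a mean of 1649 to 629 TPM in the basal state and 2214 to 841 TPM with TNF-α. The Igfbp2 layer shrinks nearly as much, from 5167 to 4216 TPM and 5086 to 3904 TPM.

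The first comparison asked which of these genes differ between GSTM1 KD and control KD in each state. Igfbp4, whose product inhibits IGF action until a protease cuts it, was at 38.8 and 33.6 TPM in control KD and at 5.33 and 8.37 TPM in GSTM1 KD in the basal state. With TNF-α it was at 41.8 and 37.4 TPM in control KD and at 10.3 and 9.28 TPM in GSTM1 KD. The groups did not overlap in either state, and the control KD libraries were close to each other. The log2 fold change was -2.46 ± 0.16 (SE) in the basal state, 5.50-fold lower, and -2.14 ± 0.15 with TNF-α, 4.40-fold lower. These values are those on which the gene was picked. The order of the GSTM1 KD replicates in the basal state differs between counts (186 and 155) and TPM, since their effective lengths differed. The effective length, by which TPM is scaled, varies with the estimated isoforms and was 2688 and 1650 bases.

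Igfbp3, whose product is the main carrier of IGFs in blood and is also secreted by many cultured cells, fell in both states. It was at 1833 and 1465 TPM in control KD and at 675 and 583 TPM in GSTM1 KD in the basal state. With TNF-α it was at 2386 and 2043 TPM in control KD and at 855 and 827 TPM in GSTM1 KD. No GSTM1 KD library reached the lowest control KD library. Its log2 fold change was -1.46 ± 0.18 (SE, n = 2 per group) in the basal state, 2.74-fold lower (adjusted p = 0.0183), and -1.46 ± 0.14 with TNF-α, 2.76-fold lower (adjusted p = 0.0106). It lost the call without either GSTM1 KD library of a state, at -1.57 (adjusted p = 0.0951 by edgeR) without replicate 1 and -1.36 (adjusted p = 0.15) without replicate 2 in the basal state, and at -1.50 (adjusted p = 0.0725) and -1.42 (adjusted p = 0.0819) with TNF-α. Here and in later fits with 1 library in a group, that library is assumed to vary like those of the other groups. In these fits 1 and 3 genes of all those tested passed in the basal state, and 0 and 94 with TNF-α.

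Some markers of contractile and fibroblast cells were lower in the same libraries as Igfbp3 and Igfbp4. The 7 pericyte and smooth muscle markers summed to 7121 and 8257 TPM in control KD and to 3495 and 4469 TPM in GSTM1 KD in the basal state, and to 6555 to 6824 TPM and 3335 to 3900 TPM with TNF-α. Acta2 (-1.02 and -0.93 on the log2 scale) and Tagln (-0.98 and -1.01) were called lower in both states, and these genes carry the sum. Pdgfrb was called higher with TNF-α (0.46 and 0.81), Rgs5 had 1.64 and 1.55 (adjusted p = 0.1 and 0.0916) and Myh11 0.09 and 0.24, and the median of the 5 tested was 0.09 and 0.24. The defining pericyte genes Abcc9 and Kcnj8 were at or under 3 counts in every group. The 8 meningeal fibroblast markers summed to 90.9 to 151 TPM in control KD and 56.8 to 93.3 TPM in GSTM1 KD. Col1a2 was called lower in both states (-1.13 and -0.99) and Foxc1 with TNF-α (-0.62). Col1a1 overlapped between the groups in the basal state, at 36.47 and 64.41 TPM against 24.5 and 48.85 TPM. Dcn means were higher in GSTM1 KD instead, at 1.33 against 1.145 TPM in the basal state and 1.73 against 1.33 TPM with TNF-α. The median log2 fold change of the 5 fibroblast markers tested was -0.516 and -0.616. Slc6a13 and Slc22a6 were at or under 3 counts in every group. The 9 oligodendrocyte lineage markers summed to 448 to 596 TPM in control KD and 340 to 441 TPM in GSTM1 KD, with Olig2 called lower in both states (-0.85 and -1.14), Olig1 with TNF-α (-0.44), and Mog and Mag at or under 3 counts in every group. The 6 endothelial markers summed to 5.75 to 8.27 TPM and 3.18 to 5.4 TPM, with none called and Cldn5 at or under 3 counts in every group. The 7 neuronal markers summed to 168 to 193 TPM and 168 to 232 TPM, nearly all of it Stmn2 and Tubb3, with none called and Snap25 at or under 3 counts in every group. The 7 choroid plexus markers summed to 2.81 to 4.76 TPM in control KD and to 7.3 to 11.5 TPM in GSTM1 KD, where Folr1 was the largest part. Folr1 had 3 to 17 counts in control KD libraries and 35 to 55 in GSTM1 KD libraries, through which it passed the filter. Basal means of Aqp1 (0.82 TPM in control KD, 0.655 TPM in GSTM1 KD) and Otx2 (1.57 and 1.45 TPM) were lower instead. The median log2 fold change of the 3 choroid plexus markers tested was -0.405 and 0.154. Clic6 was at or under 3 counts in every group. The 6 ependymal markers summed to 106 to 165 TPM in control KD and 143 to 157 TPM in GSTM1 KD, nearly all of it Foxj1 and Rarres2. Pifo was called higher with TNF-α (1.18, adjusted p = 0.0498), and Tmem212 was at or under 3 counts in every group. The median log2 fold change of the 5 ependymal markers tested was 0.794 and 0.790. Of the astrocyte markers only S100b was called, lower in both states (-1.44 and -1.71). The part of these cells in the lower Igfbp3 and Igfbp4 was not tested.

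The other binding proteins did not pass the test in this fit, which has no replicate block. With a replicate block Igfbp2 and Igfbp6 passed in the basal state. Igfbp2, the most abundant, was at 5201 and 5134 TPM in control KD and at 4491 and 3940 TPM in GSTM1 KD in the basal state, and at 4940 and 5233 TPM and 4096 and 3712 TPM with TNF-α. The groups did not overlap, and the fold difference was small. Its log2 fold change was -0.36 ± 0.15 (SE) in the basal state (adjusted p = 0.156) and -0.45 ± 0.14 with TNF-α (adjusted p = 0.0822), and only the latter passed in DESeq2 (-0.44, adjusted p = 0.0138). Igfbp6, whose product prefers IGF-II, was at 5.11 and 5.06 TPM in control KD and at 2.96 and 2.25 TPM in GSTM1 KD in the basal state, from only 17 to 94 counts per library over all groups. With TNF-α it was at 4.0 and 5.19 TPM in control KD, against 3.0 and 1.95 TPM in GSTM1 KD, so its groups did not overlap in either state. Its log2 fold change was -1.03 ± 0.32 (adjusted p = 0.0936) and, with TNF-α, -0.93 ± 0.37 (adjusted p = 0.138).

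Igfbp5, which binds IGFs and the extracellular matrix, was at 396 and 492 TPM in control KD and at 544 and 486 TPM in GSTM1 KD in the basal state. These ranges overlapped, and the log2 fold change was 0.15 ± 0.16 (adjusted p = 0.548), with 0.01 ± 0.17 (adjusted p = 0.964) with TNF-α. Igfbp7 had log2 fold changes of 0.07 ± 0.14 in the basal state (adjusted p = 0.765) and -0.03 ± 0.12 with TNF-α (adjusted p = 0.875). Igfbp2 and Igfbp5, neighbours in the genome, thus differed in sign in the basal state, with neither past the threshold.

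The receptor mRNAs did not pass either in this fit, which has no replicate block. With a replicate block Igf2r passed in both states. Igf1r, the signalling receptor, was at 36.8 and 37.2 TPM in control KD and at 31.2 and 35.1 TPM in GSTM1 KD in the basal state. Its log2 fold change was -0.25 ± 0.13 there (adjusted p = 0.234), and -0.18 ± 0.12 with TNF-α (adjusted p = 0.319). Igf2r was at 13.2 and 19.2 TPM in control KD and at 22.3 and 26.5 TPM in GSTM1 KD in the basal state, and at 14.4 and 19.6 TPM and 23.7 and 25.6 TPM with TNF-α. Every GSTM1 KD library was above every control KD library. Its log2 fold change was 0.54 ± 0.20 (adjusted p = 0.142) and 0.46 ± 0.16 (adjusted p = 0.108). Without control KD replicate 2 of a state the log2 fold change was 0.83 in the basal state (adjusted p = 0.00159 by edgeR) and 0.71 with TNF-α (adjusted p = 0.00274), but in those fits 5256 and 5028 genes passed, against 1524 and 2360 with both replicates. Without control KD replicate 1 it was 0.28 in the basal state (adjusted p = 0.189 by edgeR) and 0.24 with TNF-α (adjusted p = 0.153). The ratio of Igf2r to Igf1r in TPM was 0.360 to 0.515 in the control KD libraries and 0.650 to 0.812 in the GSTM1 KD libraries.

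The ligands were low and variable. Igf1 was at 20.8 and 10.9 TPM in control KD and at 13.6 and 12.2 TPM in GSTM1 KD in the basal state, and at 15.4 and 7.49 TPM and 13.9 and 11.5 TPM with TNF-α. The GSTM1 KD values lay between the control KD values in both states. On counts the log2 fold change was 0.10 ± 0.17 (adjusted p = 0.726) and 0.60 ± 0.24 (adjusted p = 0.134). With a replicate block Igf1 passed with TNF-α. The effective length of Igf1 ran from 2694 to 3952 bases in control KD and from 3994 to 4625 bases in GSTM1 KD, and with these lengths as offsets the log2 fold changes became -0.35 and 0.09. Without replicate 1 of control KD with TNF-α it was 1.00 (adjusted p = 0.00662 by edgeR), in a fit with 1 control library in which 2703 genes passed, and without replicate 2 it was 0.31 (adjusted p = 0.12). Igf2, the imprinted ligand gene, had 25 to 124 counts per library and log2 fold changes of -0.06 ± 0.59 in the basal state (adjusted p = 0.954) and 0.09 ± 0.48 with TNF-α (adjusted p = 0.908). These standard errors were the largest among the 10 genes.

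Among the 9 genes other than Igfbp4, 1 was called lower and 0 higher in each state. Of all genes tested, 10.2% were called in the basal state (4.6% higher and 5.62% lower) and 16.2% with TNF-α (7.26% higher and 8.92% lower), so a call of 1 in 9 is near the background. The median log2 fold change of the 9 genes was -0.06 and -0.03, beside 0.00 and -0.01 for all genes tested.

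**Figure D3:**
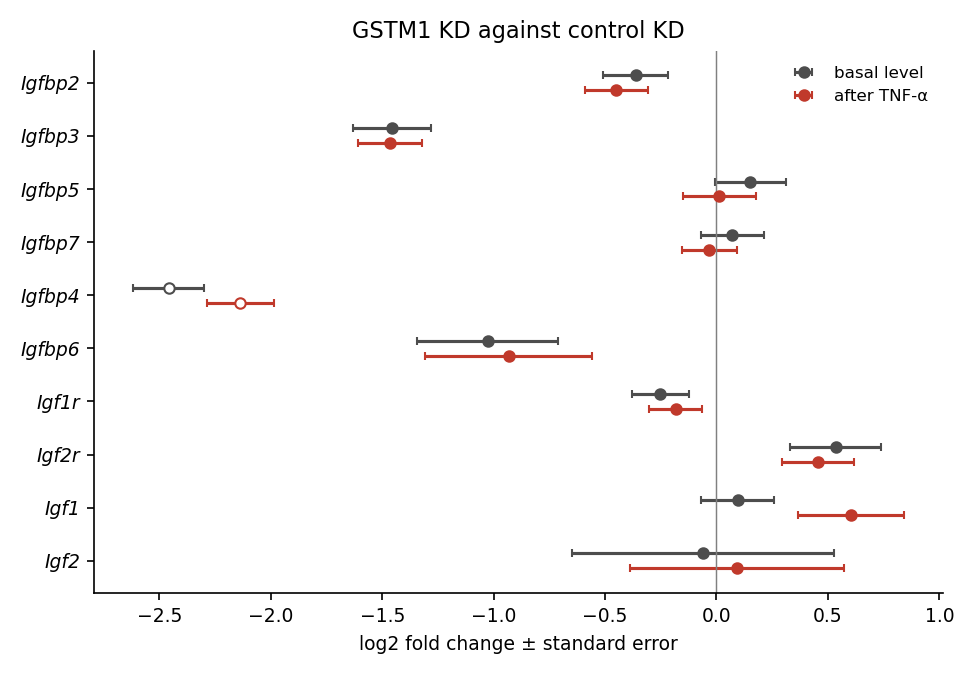
Log2 fold change of GSTM1 KD against control KD with its standard error (2 libraries per group) in the basal state and with TNF-α. Igfbp4 has open points because it was picked on this contrast, at -2.46 and -2.14, and Igfbp3 lies at -1.46 in both states, while the other genes are nearer to 0.

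The second comparison asked how these genes responded to TNF-α. Igfbp7, whose product is also known as a matrix protein of vessels, rose in control KD and in GSTM1 KD. It was at 57.9 and 70.2 TPM in control KD in the basal state and at 98.1 and 119 TPM with TNF-α. In GSTM1 KD it was at 66.2 and 74.8 TPM and then at 111 and 111 TPM. Stimulated and unstimulated libraries did not overlap in either knockdown. The log2 fold change was 0.78 ± 0.14 (SE, n = 2 per group) in control KD, 1.71-fold higher (adjusted p = 0.0311), and 0.70 ± 0.14 in GSTM1 KD, 1.62-fold higher (adjusted p = 0.0478).

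The call for Igfbp7 was close to the threshold. In control KD it was lost without basal replicate 1 (0.65, adjusted p = 0.108), basal replicate 2 (0.92, adjusted p = 0.0554) or TNF replicate 2 (0.64, adjusted p = 0.139), all by edgeR, and with only the 4 libraries of that knockdown (0.78, adjusted p = 0.201). In GSTM1 KD it was lost without any of the 4 libraries, at 0.62 to 0.78 (adjusted p = 0.192 to 0.351 by edgeR), and under DESeq2 size factors, a minimum of 10 counts in every library or effective length offsets (adjusted p = 0.0505 to 0.0554 by edgeR), and the log2 fold change was above 0 each time.

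Igfbp3 was higher with TNF-α in every library than in the unstimulated libraries of the same knockdown, with log2 fold changes of 0.44 ± 0.15 in control KD (adjusted p = 0.25), against 0.46 ± 0.15 in GSTM1 KD (adjusted p = 0.26), neither past the threshold. Igfbp4 had log2 fold changes of 0.10 ± 0.14 in control KD and 0.44 ± 0.15 in GSTM1 KD. These are given without a test, since the gene was picked on values of these libraries. Igf1 had -0.52 ± 0.23 in control KD (adjusted p = 0.416), against 0.01 ± 0.22 in GSTM1 KD (adjusted p = 1). The log2 fold changes of Igfbp2, Igfbp5, Igfbp6, Igf2, Igf1r and Igf2r ran from -0.14 to 0.21 in control KD and from -0.07 to 0.15 in GSTM1 KD. Of the genes other than Igfbp4, 1 was called higher in each knockdown and 0 lower. Of all genes tested, 2.63% were called in control KD (2.1% higher) and 2.65% in GSTM1 KD (2.35% higher).

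The difference between the responses was tested itself. edgeR called 0 of 15332 genes (0%), 295 had an unadjusted p under 0.05, and DESeq2 called 27. For Igfbp7 the response differed by -0.08 ± 0.19 (SE) and for Igfbp3 by 0.02 ± 0.21 on the log2 scale, each with adjusted p = 1 by edgeR. The greatest value among the 10 genes was that of Igf1, 0.54 ± 0.32 (adjusted p = 1). Igfbp4 had 0.35 ± 0.20, given without a test.

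**Figure D4:**
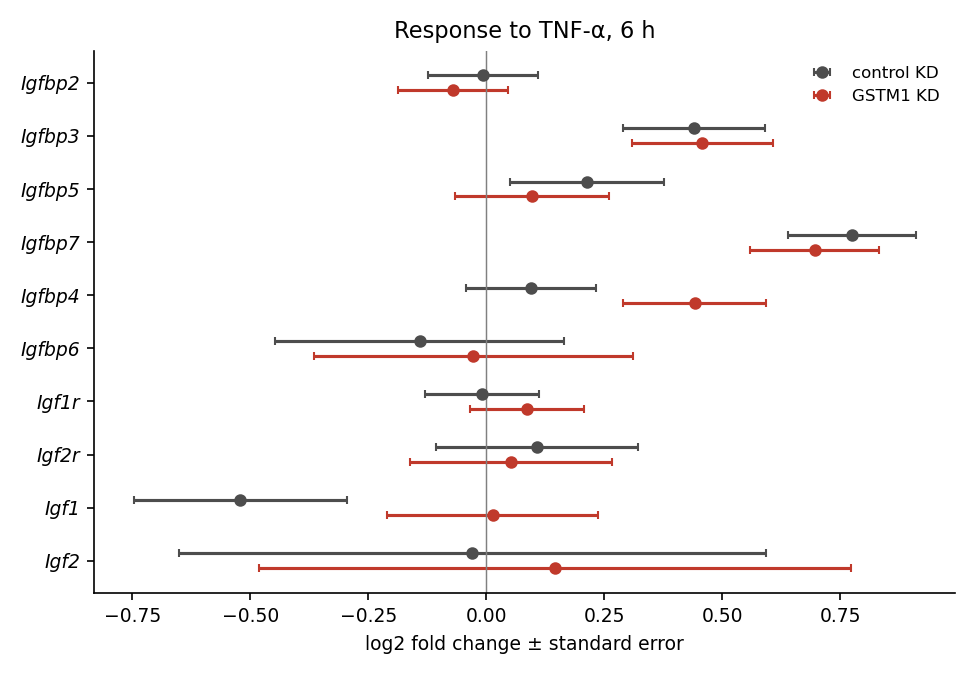
Log2 fold change with TNF-α against the basal level with its standard error (2 libraries per group), in control KD and in GSTM1 KD. Igfbp7 is farthest to the right in both, at 0.78 and 0.70, followed by Igfbp3 at 0.44 and 0.46, and Igf1 is at -0.52 in control KD.

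The proteins that cut IGF-binding proteins, and the inhibitors of these proteases, were described from a list of 14 genes. At the basal level 4 of 10 tested were called lower and 0 higher, and with TNF-α 5 of 11 lower and 0 higher, where 5.62% and 8.92% of all genes tested were called lower. Pappa, a metalloproteinase that cuts the product of Igfbp4, had 544 and 467 counts in basal control KD libraries and 220 and 203 counts in basal GSTM1 KD libraries. With TNF-α the counts were 405 and 302 in control KD, against 196 and 169 in GSTM1 KD. Its groups did not overlap, and its log2 fold change was -0.78 ± 0.17 (adjusted p = 0.0477) and -0.95 ± 0.15 (adjusted p = 0.0201). Timp1, an inhibitor of metalloproteinases, fell by 1.57 on the log2 scale in both states (adjusted p = 0.0277 and 0.0122). Adamts1, a secreted metalloproteinase, had -1.07 and -1.47 (adjusted p = 0.0331 and 0.00981), and Adam12, which cuts the products of Igfbp3 and Igfbp5, had -0.58 and -0.51 (adjusted p = 0.0325 and 0.0265). Mmp3, named after its values were seen, was called with TNF-α (-1.19, adjusted p = 0.0279). Ctsd, a lysosomal protease (0.08 and 0.03), Stc1, an inhibitor of Pappa (0.65 and 0.75), and Pappa2, a protease that cuts the product of Igfbp5 (0.53 and 0.95), were not called. The median log2 fold change of those tested was -0.68 and -0.74.

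Other proteins that carry an IGF-binding domain outside the classical family, many of them matricellular, were taken from a list of 14 genes, 11 of them tested. At the basal level 1 was called higher and 3 lower, and with TNF-α 2 higher and 3 lower, beside 4.6% higher and 5.62% lower, then 7.26% and 8.92%, of all genes tested. Nov (-1.52 and -1.45), Wisp1 (-1.33 and -1.32) and Cyr61 (-0.77 and -0.82), secreted CCN proteins of the matrix, were called lower in both states, with adjusted p from 0.0161 to 0.0296. Wisp2, a further CCN protein, was called higher in both (0.76 and 1.06, adjusted p = 0.0374 and 0.0341). Htra1, a secreted serine protease named after its values were seen, was called higher with TNF-α (1.00, adjusted p = 0.0371). The median was 0.06 and -0.13.

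**Figure D5:**
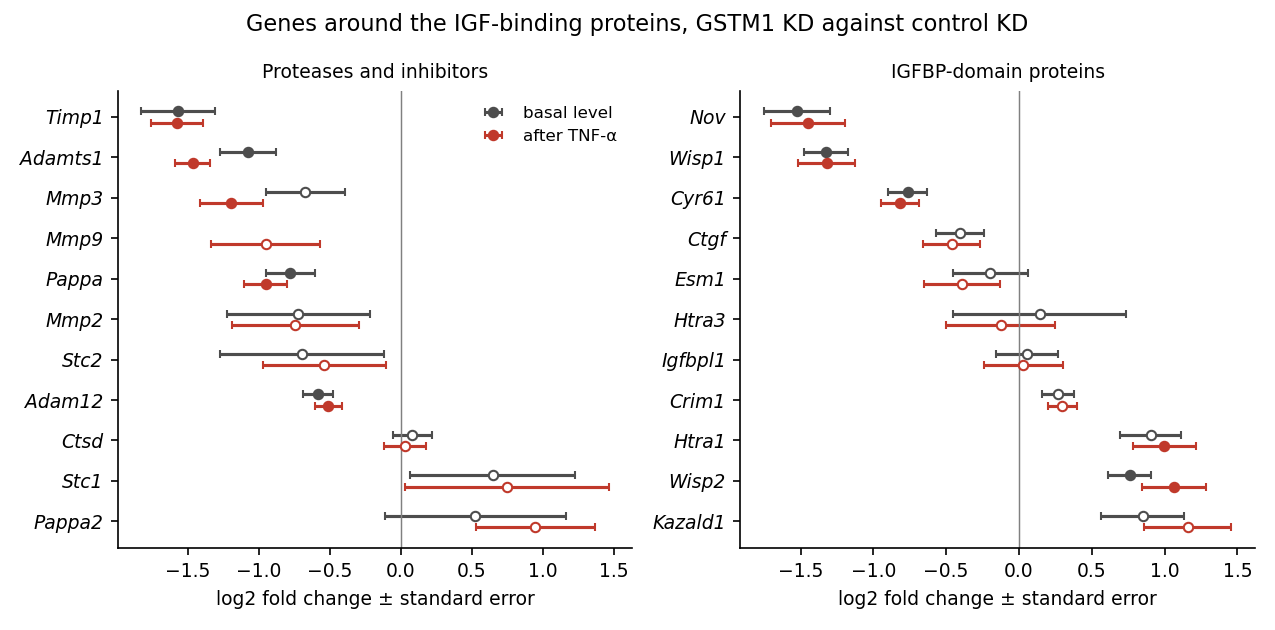
Log2 fold change of GSTM1 KD against control KD with its standard error (2 libraries per group) for the tested proteases and inhibitors and for the tested IGFBP-domain proteins, in the basal state and with TNF-α. Filled points passed the test, such as Timp1 at -1.57 in both states and Nov at -1.52 and -1.45, and open points did not.

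Inside the cell, the adaptors that bind the IGF and insulin receptors were taken from a list of 14 genes, all tested. At the basal level 3 were called lower and with TNF-α 4, with 0 higher, where 5.62% and 8.92% of all genes tested were called lower. Grb10, an imprinted adaptor that restrains signalling of these receptors, was at 22.4 and 15.1 TPM in control KD and at 6.32 and 6.17 TPM in GSTM1 KD in the basal state, with log2 fold changes of -1.65 ± 0.21 in the basal state (adjusted p = 0.0195) and -1.55 ± 0.25 with TNF-α (adjusted p = 0.0208). Shc1 had -0.73 and -0.81 and Sos1 -0.46 and -0.39 in these states, and Grb2 was called with TNF-α (-0.44). Irs1 and Irs2, the main docking proteins, did not pass, at -0.13 and -0.46 in the basal state. The median was -0.18 and -0.32.

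Of 28 genes of the PI3K, AKT, mTOR and FOXO pathway, all tested, 1 was called higher and 1 lower in the basal state, and 2 higher and 3 lower with TNF-α, a share near the 10.2% and 16.2% of all genes tested that were called. Akt1, a kinase that carries the receptor signal, had -0.56 and -0.64, and Sesn1, a stress-induced inhibitor of mTOR signalling, had 0.88 and 0.93. With TNF-α Tsc1 (-0.51) and Foxo1 (-0.58) were lower, and Sesn3, named after its values were seen, was higher (0.69). The median was 0.04 and -0.04.

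The insulin receptor gene Insr was at 13.5 to 18.4 TPM in every group and was not called (-0.08 and -0.20, adjusted p = 0.704 and 0.222). Ins1 and Ins2 had 0 counts in every library, which at 3 counts allows 0.0871 to 0.173 CPM of the library totals without TMM scaling, a limit for counting error only, and Igfals had at most 4 counts. Igf2bp1, Igf2bp2, Igf2bp3 and H19 were tested and not called, with Igf2bp3 at -0.40 and -1.07 (adjusted p = 0.473 and 0.129 by edgeR). The TNF-α responses of all these lists held 1 call by edgeR, that of the gelatinase Mmp9 in control KD. Mmp9 had 6 and 2 counts in basal control KD libraries, 24 and 22 with TNF-α, 7 and 8 in basal GSTM1 KD libraries and 14 and 10 with TNF-α. At these counts it passed the filter through the stimulated libraries, where it is high, and its call is not used here.

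Likeness to Igfbp4 was described by Pearson's correlation of log2 CPM over the 8 libraries, with no test, since the libraries share the knockdown and stimulation groups. Of 15331 other genes the most alike were Atad1 (0.998), Tcea1 (0.997), Pex3 (0.997), Api5 (0.997) and Fam210a (0.997). Their log2 fold changes in GSTM1 KD were far smaller than that of Igfbp4, for example -0.40 and -0.39 for Atad1. By Spearman's correlation Fam210a was 1 of 81 genes tied at the highest value (1.00) and the other 4 were not among them. Within the 4 libraries of either state 0 of the 5 were among the 5 most alike. Their Pearson correlations there were still 0.9964 to 0.9997 in the basal state and 0.9950 to 0.9993 with TNF-α. The fifth highest values were 0.9998 and 1.0000. Among the IGF genes Igfbp3 was the most alike (0.977, rank 227), then Igfbp2 (0.910), Igfbp6 (0.894) and Igf1r (0.753). Igf2 (0.192) and Igfbp7 (0.0396) varied with little relation to Igfbp4, and Igfbp5 (-0.33), Igf1 (-0.54) and Igf2r (-0.83) varied in the opposite direction.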

How the data were processed

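The authors prepared directional RNA-seq libraries, mapped reads to GRCm38 with STAR (version 2.5.4b) and estimated gene abundance by RSEM (version 1.3.0). The deposited files hold for each gene the expected count (an estimate, not normalized, with shared reads divided), TPM, and the effective length in bases (which varies with the estimated isoforms). The annotation release is not given in the sources used here, and the identifiers of 9 of the 10 genes match GENCODE vM21 with their version, with Igf2r one version apart. The deposited FPKM values were not used.

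Groups come from the labels of the samples, and all 8 were used. Expected counts were rounded and tested with edgeR (version 4.0.16, R version 4.3.3) by its legacy quasi-likelihood method, with TMM factors (0.958 to 1.03), filterByExpr by group and Benjamini-Hochberg adjustment. Knockdown comparisons used the 4 libraries of a state, and TNF-α responses and their difference used all 8. Levels between genes are compared in TPM only. CPM uses TMM-scaled totals, and log2 CPM a prior count of 2. The scripts were tested on simulated data. Common biological variation was 15.9%, 14.5% and 15.4% in the basal, stimulated and full fits, and replicates differed beyond sampling noise in each group. The low-count floor was 3 counts.

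The members and lists were chosen with earlier results of these data known. Genes named are the 10 members, Gstm1, up to 4 called genes per list and comparison with the smallest p, the 5 genes most like Igfbp4, and markers of the cell type lists. Named outside this rule, after their values were seen, were Mmp3, Mmp9, Ctsd, Stc1, Pappa2, Htra1, Irs1, Irs2, Sesn3, Insr, Ins1, Ins2, Igfals, Igfbp1, Igf2bp1, Igf2bp2, Igf2bp3 and H19. Alternatives were DESeq2 (version 1.42.0), edgeR's newer method, DESeq2 size factors, library size only, no filter, a minimum of 10 counts, effective length offsets, a replicate block, all 8 or 4 libraries, and leaving out each library. Protein sequences were not used here. Promoters were read from RefSeq with Python (version 3.11.15), and figures were drawn with matplotlib (version 3.10.9).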

Additional observations from a re-analysis of the deposited data

How the results depend on the processing

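The knockdown fold changes of Igfbp3 and Igfbp4 kept their direction under every alternative, with Igfbp4 at -2.60 to -2.31 at the basal level and -2.26 to -1.99 after TNF-α stimulation. Igfbp3 kept its call except without either GSTM1 KD library. Over all alternatives for the 10 genes the sign changes fell on fold changes that were near 0 in the fit reported, and their cause was not tested. Having 2 libraries per group limits the precision, most for Igf2 and Igfbp6, which have the fewest counts.

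The number of genes called depended on the setting. At the basal level it was 1524, with 2522 in DESeq2, 3957 with no filter, 4712 with a replicate block, 2762 with all 8 libraries and 1 to 5256 when a library was left out. After TNF-α stimulation it was 2360, with 4540 with no filter, 4302 with a replicate block and 0 to 5028 when a library was left out. The TNF-α response in control KD gave 403, with 761 in DESeq2, 1255 with no filter, 988 with a replicate block, 72 with only its 4 libraries and 180 to 313 when a library was left out. In GSTM1 KD it gave 406, with 647, 1050, 808 and 691 under the same settings and 74 to 255 when a library was left out. The difference of the responses gave 0, with 27 in DESeq2, 134 with no filter, 0 with a replicate block and 0 to 2 when a library was left out.

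Of the genes other than Igfbp4, 1 was called at the basal level, 4 with no filter or with a replicate block, and 0 to 2 when a library was left out. After TNF-α stimulation 1 was called, with 2 in DESeq2, 4 with no filter, 3 with a replicate block, 2 with all 8 libraries and 0 to 2 when a library was left out. For the response in control KD 1 of 10 was called, with 3 with no filter, 2 with a replicate block, 0 with only its 4 libraries and 0 to 1 when a library was left out. In GSTM1 KD 1 was called, with 0 under DESeq2 size factors, at least 10 counts or effective length offsets, 2 with no filter or a replicate block, and 0 without any of the libraries. The counts for the TNF-α responses include Igfbp4. Equal replicate numbers are not said to mark a shared source. Their deviations from the group means correlated at 0.165 to 0.575 over 15332 genes, and with the replicate block Igfbp2, Igfbp6 and Igf2r passed at the basal level beside Igfbp3, and Igf1 and Igf2r beside Igfbp3 after TNF-α stimulation.

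When a library was left out, knockdown fold changes (log2) ran at the basal level from -0.053 to 0.192 for Igfbp7, -0.094 to 0.303 for Igf1 and -1.29 to 0.57 for Igf2. After TNF-α stimulation they ran from -0.17 to 0.22 for Igfbp5, -0.17 to 0.12 for Igfbp7 and -0.68 to 0.58 for Igf2. In the response in control KD they ran from -0.042 to 0.039 for Igfbp2, -0.046 to 0.25 for Igfbp4, -0.326 to 0.043 for Igfbp6, -0.36 to 0.23 for Igf2, -0.032 to 0.027 for Igf1r and -0.14 to 0.42 for Igf2r. In GSTM1 KD they ran from -0.163 to 0.035 for Igfbp2, -0.40 to 0.25 for Igfbp6, -0.046 to 0.073 for Igf1, -0.64 to 1.38 for Igf2, -0.042 to 0.219 for Igf1r and -0.063 to 0.184 for Igf2r. For the difference of the responses Igfbp3 ran from -0.17 to 0.17. With effective length offsets, Igf1 was at -0.35 at the basal level, Igf2 at -0.12 after TNF-α stimulation and 0.26 in the response in control KD, and Igf1r at 0.083 in that response. With library size only, Igfbp7 was at 0.005 after TNF-α stimulation and Igf1 at -0.03 in the response in GSTM1 KD. With at least 10 counts in every library, Igfbp2 and Igf1r were at 0.009 in the response in control KD and Igfbp3 at -0.007 in the difference, and with only its 4 libraries Igfbp2 was at 0.001. Of the 5 genes most like Igfbp4, 1 was among the 81 tied at the top of Spearman's correlation. Within the basal or within the stimulated libraries 0 were among the 5 most alike, though their Pearson correlations there stayed high.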
